A study of Homo sapiens with 4 samples.

Results

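The genes described here are the replication-dependent histone genes and the linker histone genes of the human genome, measured in suspended bone cancer cells with and without melatonin. A gene was a member when its symbol began with HIST, a digit and H, was H1- followed by a number, or was H2AC, H2BC, H3C or H4C followed by a number, and symbols that end in P plus digits were left out. Described here are 69 of the 61806 genes in the deposited table, namely 9 of the H1 class, 16 of H2A, 17 of H2B, 13 of H3 and 14 of H4. Of these, 55 lie on chromosome 6, 11 on chromosome 1, 2 on chromosome 3 (H1-8 and H1-10) and 1 on chromosome 12 (H1-7).

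RNA was taken from JJ012, an established human chondrosarcoma line, and from 143B, an established human osteosarcoma line, both held in suspension under conditions that prevent attachment. Each line gave 1 control library and 1 library from cells exposed to 1 mM melatonin, the hormone of the pineal gland, for 72 h. Libraries were built from poly(A)-selected RNA and held 19218343 counts in the JJ012 control, 16143700 in melatonin-treated JJ012, 15889564 in the 143B control and 17164824 in melatonin-treated 143B. With 1 library per condition there is no replicate spread, so each difference within a line is between 2 libraries and has no p-value, and the 95% intervals cover counting error only. The tumour types of the labels were checked against lists of lineage markers, whose sums did not separate the lines as those labels would. The 5 cartilage markers summed to 16.77 FPKM in the JJ012 control and 16.13 FPKM in the 143B control. The cartilage regulator SOX9 was at 15.06 and 15.48 FPKM in these libraries, and the cartilage matrix gene COL2A1 at 0 and 0.02 FPKM. COL11A2 was higher in JJ012, as its label would have it, at 1.67 and 0.52 FPKM. ACAN was at 0.02 and 0.11 FPKM, and COL9A1 at 0.02 FPKM and 0. The 7 bone markers summed to 94.74 FPKM in the JJ012 control and 6.97 FPKM in the 143B control, with SPP1 at 79.39 and 0.40 FPKM and COL1A1 at 10.92 and 0.49 FPKM. The bone regulator RUNX2 was at 3.02 and 4.28 FPKM, and IBSP, a bone matrix gene, at 0.13 FPKM and 0. BGLAP was at 0.81 and 1.44 FPKM, which like RUNX2 is the order of the labels. ALPL was at 0.35 and 0.36 FPKM, and SP7 at 0.12 FPKM and 0. Other marker lists moved with melatonin in JJ012: the 4 mesenchymal markers (VIM, COL1A2, COL3A1, THY1) summed to 633.53 FPKM in the control and 224.54 FPKM after melatonin, the 4 epithelial ones to 16.09 and 7.57 FPKM, and the 4 leukocyte ones to 16.85 and 8.45 FPKM with the defining gene PTPRC at 0.14 and 0.02 FPKM. Their part in the histone values was not tested.

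Core histones H2A, H2B, H3 and H4 form the protein spool of the nucleosome, and H1 linker histones bind the DNA where it enters and leaves that spool. Most of their genes lie in clusters, are transcribed in S phase when new DNA must be packaged, and give short mRNAs without introns that end in a stem-loop in place of a poly(A) tail. The stem-loop is bound by SLBP, which takes the mRNA through processing, translation and decay, and a poly(A)-selected library therefore samples chiefly those histone transcripts that carry a tail. H1-10 lies outside the clusters, is expressed outside S phase as well and gives a polyadenylated mRNA. In bulk RNA, fewer cells in S phase and less histone mRNA per cell cannot be told apart.

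The stem-loop sequences are shown because they mark the transcripts that poly(A) selection is known to capture poorly. A hairpin of 16 bases, with a stem of 6 base pairs that starts with GG and ends with CC, bases CT before the loop and a loop of 4 bases that starts with TTT, was searched for in the GENCODE 29 transcripts of the 65 members matched by gene ID. It was found in a transcript model of 25 members, none of the H1 class, and in 0.0614% of all protein-coding transcripts. The forms read as follows, 5′ to 3′ in the DNA alphabet, with the loop in capitals and 1 member named for each.
H2AC6: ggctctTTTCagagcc
H2BC5: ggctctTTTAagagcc
H2AC11: ggctctTTTCagggcc
H4C8: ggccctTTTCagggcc
H4C14: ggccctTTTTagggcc
The first form was shared by 13 members, the second by 4, the third by 1, the fourth by 4 and the fifth by 3. The H4 genes differed from the H2A, H2B and H3 genes in the stem, which reads ggccct in every H4 match and ggctct in every other match. In 17 of the 25 members a model ran on for over 300 bases past the hairpin, and 11 of those 17 reached 1 FPKM in at least 1 library. The counts rest on another annotation, which for some of these genes is far shorter. H2AC11 has a model of 2250 bases and a deposited exonic length of 493, and H2BC9 one of 2060 and a length of 462. For such genes most of the model was not counted, so their FPKM do not measure the longer form. In the other 8 each model with the hairpin ended within 300 bases of it, and 7 of those 8 reached 1 FPKM, among them H2BC5 with 39 bases past the hairpin. H2BC5 has another protein-coding model of 789 bases without the hairpin, and the counts do not separate the models of a gene. A member without a match has no such letters in its GENCODE models, and nothing follows from that about its mRNA.

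Promoters are shown for 3 members on which the results turn: H2AC6, the H2A gene with the highest level, whose window it shares with its divergent neighbour H2BC4, H1-2, the clustered H1 gene with the highest level, and H4C8, the H4 gene with the highest level. The letters are the 250 bases before the RefSeq start (build GRCh38.p14), with the CCAAT box, the TATAAA box and the octamer ATTTGCAT in capitals on either strand.
H2AC6: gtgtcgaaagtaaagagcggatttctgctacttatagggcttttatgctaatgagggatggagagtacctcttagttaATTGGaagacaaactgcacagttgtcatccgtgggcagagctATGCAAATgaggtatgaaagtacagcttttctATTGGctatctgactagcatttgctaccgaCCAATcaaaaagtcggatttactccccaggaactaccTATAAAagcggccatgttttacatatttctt
H1-2: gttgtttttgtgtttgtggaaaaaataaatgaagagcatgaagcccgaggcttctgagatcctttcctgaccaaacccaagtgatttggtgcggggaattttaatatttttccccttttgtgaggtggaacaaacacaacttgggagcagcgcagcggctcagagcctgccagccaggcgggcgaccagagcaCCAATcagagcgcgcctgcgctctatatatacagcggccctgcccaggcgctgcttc
H4C8: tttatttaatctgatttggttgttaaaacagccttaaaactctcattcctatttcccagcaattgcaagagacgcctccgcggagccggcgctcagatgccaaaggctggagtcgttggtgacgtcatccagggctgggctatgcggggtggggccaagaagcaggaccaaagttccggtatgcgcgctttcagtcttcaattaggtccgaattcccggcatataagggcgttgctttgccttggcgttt
The H2AC6 window (chr6:26123922-26124171, plus strand) belongs to a RefSeq start 27 bases from the deposited one and holds CCAAT 3 times and each of the other motifs 1 time. The H1-2 window (chr6:26056471-26056720, minus strand) holds CCAAT 1 time, and the H4C8 window (chr6:26285535-26285784, minus strand), whose RefSeq start is 104 bases from the deposited one, holds none of the 3. In the full RefSeq windows of 250 bases before to 50 bases after the start, available for 64 of the 69 members, CCAAT stood in 84.4% of members against 34.6% of 35116 promoters, TATAAA in 67.2% against 11.5%, and ATTTGCAT, the octamer bound by POU2F1, in 39.1% against 1.77%. The octamer stood in 11 of 15 H2A windows and 14 of 17 H2B windows and in 0 of the H1, H3 and H4 windows. H4 windows held CCAAT in 3 of 12, where every H2A, H2B and H3 window held it. Both strands were searched, a TATAAA match could share letters with another, and these matches describe letters only, without any measurement of binding.

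The members summed to 0.0678% of all counts in the JJ012 control (95% exact interval 0.0667% to 0.0690%), 0.0559% after melatonin (0.0548% to 0.0571%), 0.0344% in the 143B control (0.0335% to 0.0353%) and 0.0302% after melatonin (0.0294% to 0.0311%). The sum was lower in both treated libraries, with a log2 ratio of CPM (counts relative to the library total) of -0.28 (-0.32 to -0.24) in JJ012 and -0.19 (-0.24 to -0.13) in 143B. Without H1-7, H1-8 and H1-10, the other 66 members, which are those of the clusters, summed to 521 CPM in the JJ012 control and 419 CPM after melatonin, and to 230 CPM in the 143B control and 192 CPM after melatonin. These too were lower in both treated libraries, with a log2 CPM ratio of -0.31 (-0.36 to -0.27) in JJ012 and -0.26 (-0.33 to -0.19) in 143B. In 143B the clustered sum went from 3647 to 3288 counts, and H1-2 alone from 1175 to 690 counts. The 60 core members, those outside the H1 class, had a log2 CPM ratio of -0.27 (-0.32 to -0.22) in JJ012. In 143B the interval of the core members held 0 (-0.04, -0.12 to 0.04).

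**Figure D1:**
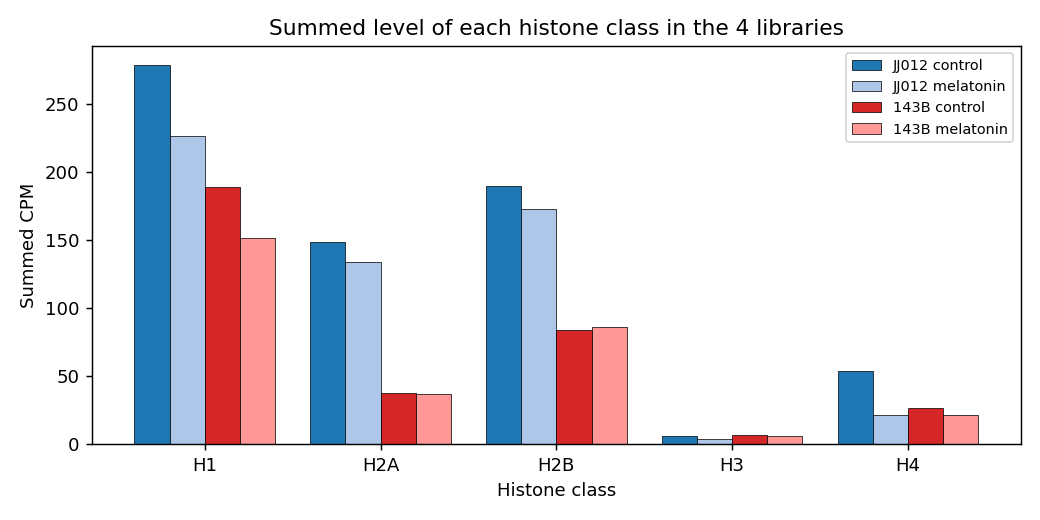
Summed CPM (y axis) of the H1, H2A, H2B, H3 and H4 classes (x axis), with 1 bar for each of the 4 libraries and no error bar. H1 is the tallest group in each library, at 279 CPM in the JJ012 control and 227 CPM in melatonin-treated JJ012, and the H3 bars lie near 0.

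The class sums differed unequally in JJ012. The H4 class summed to 54.0 CPM in the control and 21.4 CPM after melatonin (log2 CPM ratio -1.33, interval -1.51 to -1.16), and the H3 class to 6.40 and 3.53 CPM (-0.86, -1.34 to -0.39). H2A genes summed to 149 and 134 CPM (-0.15, -0.23 to -0.07) and H2B genes to 190 and 173 CPM (-0.14, -0.21 to -0.06). H1 genes summed to 279 and 227 CPM in JJ012 (-0.30, -0.36 to -0.24) and to 189 and 152 CPM in 143B (-0.32, -0.39 to -0.24). In 143B the H4 class stood at 26.6 CPM in the control and 21.6 CPM after melatonin (-0.30, -0.51 to -0.10), and the intervals of the H2A class (-0.03, -0.19 to 0.13), the H2B class (0.04, -0.07 to 0.14) and the H3 class (-0.19, -0.58 to 0.20) held 0. The H4 sums are mostly 1 gene, H4C8, which gave 899 of the 1037 H4 counts in the JJ012 control.

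Few members were measured well. In each library 20 of the 69 reached 1 FPKM (counts divided by exonic length and library total), and between 5 and 8 reached 10 FPKM. Between 25 and 35 members had no count in a library, which allows up to 3 counts there, or 0.156 to 0.189 CPM. In all, 28 members reached 1 FPKM in at least 1 library and are described by class below, and 41 did not. Of those 41, 15 had no count in any library, 27 were at or under 3 counts in every library, and the highest count was 28.

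A member was tested in a comparison when it reached 1 FPKM in at least 1 of the 2 libraries, and called when log2((FPKM + 1)/(FPKM + 1)) was at least 0.58 in size, a fold that understates the difference of low genes. For JJ012 with melatonin, 21 of the 69 members were tested, of which 1 was called higher and 7 lower, where 19.6% of 15794 tested genes were called higher and 18.6% lower. As a share of the tested members, 4.76% were higher and 33.3% lower. The median log2 fold change of the tested members was -0.16, beside 0.01 over all tested genes. On the TPM scale, which moved the median of all genes to 0.21, the split was 7 higher and 9 lower of 32 tested (all genes 33.0% and 19.9%), and after subtraction of the running median over exonic length it was 4 higher and 4 lower of 21 (all genes 18.1% and 16.4%), so that the direction of the members' median turned (0.072 and 0.025, respectively). With DESeq2 size factors the split was 0 higher and 6 lower of 21 (all genes 18.3% and 18.5%).

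For 143B with melatonin, 22 members were tested, of which 1 was called higher and 2 lower, where 6.09% of 14135 tested genes were called higher and 6.65% lower. As a share of the tested members, 4.55% were higher and 9.09% lower, so both shares lay near those of all genes. The median was -0.05, beside 0.03 over all tested genes. On the CPM scale, and after subtraction of the running median over exonic length, the split was 1 higher and 1 lower. Of all tested genes, 6.29% were higher and 5.07% lower on the CPM scale, and 5.74% and 6.52% after that subtraction.

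The lines were also taken as replicates of melatonin, in 1 edgeR quasi-likelihood fit with the line as a block, added after seeing the data. It leaves 1 residual degree of freedom among the 4 libraries and counts a difference between the lines' responses as error. With Benjamini-Hochberg adjustment over 19301 genes, 0 of 23 members tested were called higher or lower at an adjusted p under 0.05, where 0.0622% of all genes were higher and 0.290% lower. H4C8 was the 1 member at an unadjusted p under 0.05 (log2 fold change -1.10, edgeR adjusted p = 0.403), and H1-2 followed (-0.69, edgeR adjusted p = 0.955), both lower in both lines. That is 4.35% of the members tested, where 5.9% of all genes had an unadjusted edgeR p under 0.05. DESeq2 called 0 members as well, where of all 19301 genes it called 0 higher and 7 lower. H1-2 was its 1 member at an unadjusted p under 0.05, or 4.35% of members beside 1.7% of all genes.

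**Figure D2:**
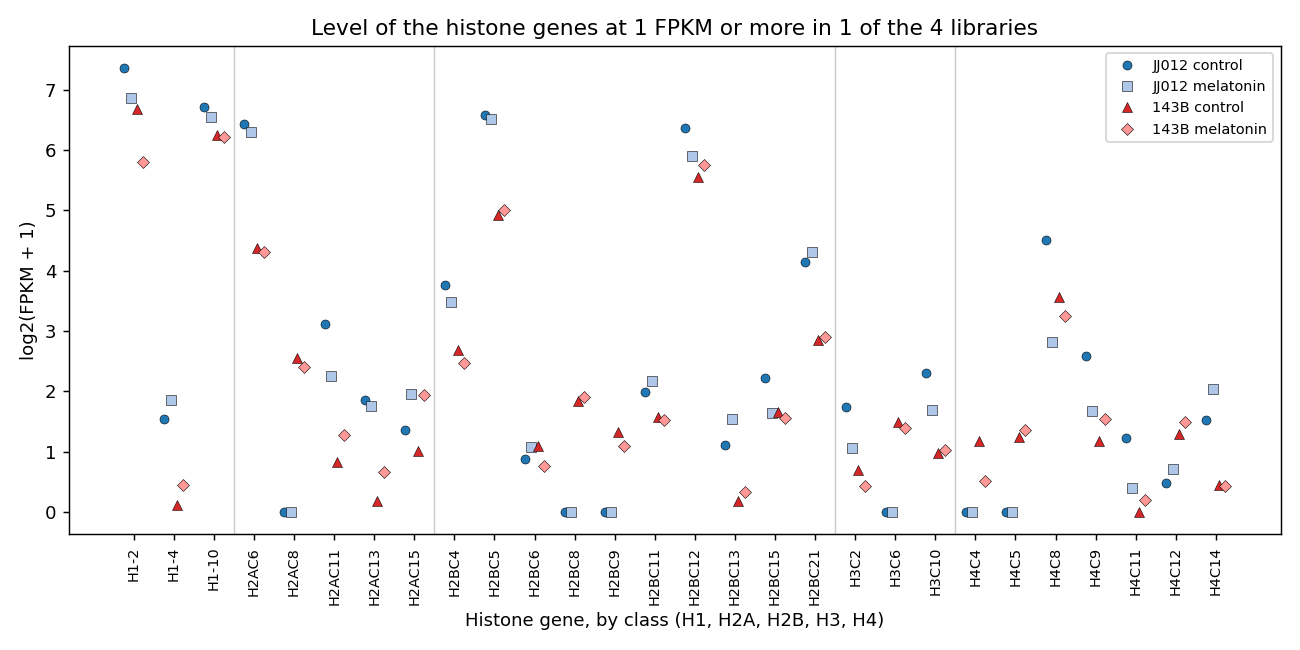
Level of the 28 members that reached 1 FPKM in at least 1 library, as log2(FPKM + 1) (y axis), by gene in order of class (x axis), with 1 symbol per library and no replicates. H1-2 stands highest in both JJ012 libraries and the 143B control and H1-10 in melatonin-treated 143B, and H2AC8, H2BC8, H2BC9, H3C6, H4C4 and H4C5 lie at 0 in both JJ012 libraries and above 0 in both 143B libraries.

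Of the 9 linker histone genes, 3 reached 1 FPKM in at least 1 library. H1-2, the clustered H1 gene with the highest level (ENSG00000187837, chr6:26055740-26056470), was at 162.93 FPKM in the JJ012 control, 115.5 FPKM after melatonin, 101.16 FPKM in the 143B control and 54.99 FPKM after melatonin. It was lower with melatonin in both lines, by a log2 CPM ratio of -0.50 (-0.59 to -0.40) in JJ012, which did not pass the threshold, and of -0.88 (-1.02 to -0.74) in 143B, which did.

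H1-10, a linker histone from outside the clusters, was at 103.52 FPKM in the JJ012 control, 92.47 FPKM after melatonin, 75.31 FPKM in the 143B control and 73.02 FPKM after melatonin, and was called in neither line. Its locus carries H1-10-AS1 on the other strand, which stayed under 1 FPKM in each library. H1-4, another clustered linker histone, was at 1.92 FPKM and 2.60 FPKM in control and treated JJ012, and at 0.08 FPKM (1 count) and 0.37 FPKM (5 counts) in control and treated 143B. The interval of its melatonin ratio held 0 in both lines (-0.33 to 1.21 and -0.95 to 7.77). The clustered linker histone genes H1-1 and H1-5 had no count in any library, and H1-3 had counts in 143B alone, 4 in each library.

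Of the H2A genes, whose products pair with H2B in the nucleosome, 1 stood far above the rest. H2AC6 (ENSG00000180573, chr6:26124145-26139116) was at 85.13 FPKM in the JJ012 control, 77.32 FPKM after melatonin, 19.85 FPKM in the 143B control and 18.9 FPKM after melatonin. The lines were apart and the treated libraries close to their controls, with a melatonin log2 CPM ratio of -0.14 (-0.22 to -0.06) in JJ012 and -0.07 (-0.25 to 0.10) in 143B. H2AC11 was at 7.70 FPKM in the JJ012 control, 3.77 FPKM after melatonin, 0.77 FPKM in the 143B control and 1.42 FPKM after melatonin. It was called lower in JJ012 (73 counts against 30, log2 CPM ratio -1.03, -1.70 to -0.40) and was not called in 143B (6 counts against 12).

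H2AC15 was at 1.57 FPKM in the JJ012 control, 2.87 FPKM after melatonin, 1.02 FPKM in the 143B control and 2.82 FPKM after melatonin. It was the only member called higher with melatonin, and was so in both lines, on 15 and 23 counts in JJ012 and 8 and 24 counts in 143B. In JJ012 it was not called on the CPM scale (0.45), and the interval of its log2 CPM ratio held 0 in JJ012 (0.87, -0.13 to 1.91) and not in 143B (1.47, 0.27 to 2.84). H2AC13 was at 2.63 FPKM in the JJ012 control, 2.38 FPKM after melatonin, 0.13 FPKM in the 143B control and 0.59 FPKM after melatonin. H2AC8 was at 0 in both JJ012 libraries and at 4.87 FPKM and 4.28 FPKM in control and treated 143B. Neither was called with melatonin. Reads of H2AC18 and H2AC19, near-identical neighbours on chromosome 1, may have been split between the copies by the counting, and both were under 1 FPKM in each library.

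Of the 17 H2B genes, 10 reached 1 FPKM, more than in any other class. H2BC5 (ENSG00000158373, chr6:26158122-26171349) was at 95.06 FPKM in the JJ012 control, 90.43 FPKM after melatonin, 29.24 FPKM in the 143B control and 31.19 FPKM after melatonin. H2BC12 (ENSG00000197903, chr6:27146361-27146855) was at 81.68 FPKM in the JJ012 control, 58.82 FPKM after melatonin, 46.15 FPKM in the 143B control and 52.73 FPKM after melatonin. Both were higher in the JJ012 libraries, and neither was called with melatonin, although for H2BC12 the counting interval in JJ012 lay under 0 (-0.47, -0.64 to -0.31). H2BC5 overlaps other genes in the annotation (LARP1P1 on its own strand, at most 2 counts per library, and ENSG00000283064 on the other strand, 10 to 81 counts).

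H2BC21, on chromosome 1, was at 16.59 FPKM in the JJ012 control, 18.88 FPKM after melatonin, 6.17 FPKM in the 143B control and 6.47 FPKM after melatonin. H2BC4, the divergent neighbour of H2AC6, was at 12.59 FPKM in the JJ012 control, 10.2 FPKM after melatonin, 5.40 FPKM in the 143B control and 4.51 FPKM after melatonin. Both had the order of H2AC6 across the lines, with each JJ012 library above each 143B library. H2BC15, which has the longest exonic length of all members (4265 bases), was at 3.65 FPKM in the JJ012 control, 2.11 FPKM after melatonin, 2.15 FPKM in the 143B control and 1.93 FPKM after melatonin. Its log2 fold change in JJ012, -0.58, lay at the threshold itself and was called lower, and fell short of it with TMM factors (-0.51) and, narrowly, with DESeq2 size factors.

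The other H2B genes were low and none was called with melatonin. H2BC11 was at 2.98 and 3.49 FPKM in control and treated JJ012 and at 1.99 and 1.89 FPKM in control and treated 143B. H2BC13 was at 1.15 and 1.92 FPKM in JJ012 and at 0.14 and 0.26 FPKM in 143B, in the same order. H2BC6 was at 0.83 and 1.10 FPKM in JJ012 and at 1.14 and 0.70 FPKM in 143B. Each of these had counts in all libraries, unlike the last pair. H2BC8 was at 0 in both JJ012 libraries and at 2.57 and 2.74 FPKM in control and treated 143B, and H2BC9 was likewise at 0 in JJ012 and at 1.50 and 1.13 FPKM in 143B.

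The H3 genes of the clusters were nearly silent in these libraries, with 57 to 123 counts over all 13 genes per library. H3C10 was at 3.95 FPKM in the JJ012 control, 2.23 FPKM after melatonin, 0.96 FPKM in the 143B control and 1.03 FPKM after melatonin. H3C2 was at 2.34 FPKM in the JJ012 control, 1.09 FPKM after melatonin, 0.62 FPKM in the 143B control and 0.34 FPKM after melatonin. Both were called lower in JJ012, H3C10 on 95 and 45 counts (log2 CPM ratio -0.83, -1.37 to -0.30) and H3C2 on 23 and 9 counts, with an interval that held 0 (-1.10, -2.40 to 0.06). H3C10 was not called with TMM factors (-0.54), on the TPM scale (-0.51) or after subtraction of the running median over exonic length (-0.33), and H3C2 not on the CPM scale (-0.50) or after that subtraction (-0.55). H3C6 had no count in JJ012 and was at 1.81 FPKM and 1.63 FPKM in control and treated 143B.

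H4C8 showed the largest melatonin difference among the members measured with 100 counts or more. H4C8 (ENSG00000158406, chr6:26277609-26285638) was at 21.63 FPKM in the JJ012 control, 6.07 FPKM after melatonin, 10.85 FPKM in the 143B control and 8.48 FPKM after melatonin. In JJ012 it was 3.56-fold lower after melatonin (899 counts against 212, log2 CPM ratio -1.83, -2.06 to -1.62), and it was the only member still called at a log2 fold change of 1. In 143B it was 1.28-fold lower (-0.36, -0.58 to -0.14) and was not called. An antisense gene, ENSG00000289447, overlaps it, with 1 to 19 counts per library, and since the strand setting of the counting is not given in the sources used here, reads of the antisense partner cannot be told apart from its own.

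H4C9 was at 4.98 FPKM in the JJ012 control, 2.18 FPKM after melatonin, 1.27 FPKM in the 143B control and 1.91 FPKM after melatonin. H4C11 was at 1.34 FPKM (10 counts) in the JJ012 control and 0.32 FPKM (2 counts) after melatonin, with no count in the 143B control and 1 count after melatonin. Both were called lower in JJ012, with a log2 CPM ratio of -1.19 (-2.19 to -0.27) for H4C9 and of -2.07 (-5.30 to 0.16) for H4C11. H4C14 was at 1.88 FPKM in the JJ012 control, 3.10 FPKM after melatonin, 0.37 FPKM in the 143B control and 0.34 FPKM after melatonin. It went the other way from H4C8 in JJ012, with a log2 CPM ratio of 0.72 (0.25 to 1.19), under the threshold on the log2(FPKM + 1) scale (0.51) and over it on the CPM scale (0.59). Since H4C15 and H4C14 are near-identical copies, the division of reads between them is uncertain.

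H4C12 was at 0.40 and 0.64 FPKM in control and treated JJ012 and at 1.46 and 1.81 FPKM in control and treated 143B. H4C5 had no count in JJ012 and was at 1.37 and 1.56 FPKM in 143B. H4C4 had no count in JJ012 either and was at 1.25 FPKM (8 counts) in the 143B control and 0.43 FPKM (3 counts) after melatonin. H4C4 was called lower in 143B, on a ratio whose interval held 0 (-1.53, -4.08 to 0.53) and with H1-2 made up the 2 members called lower there.

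**Figure D3:**
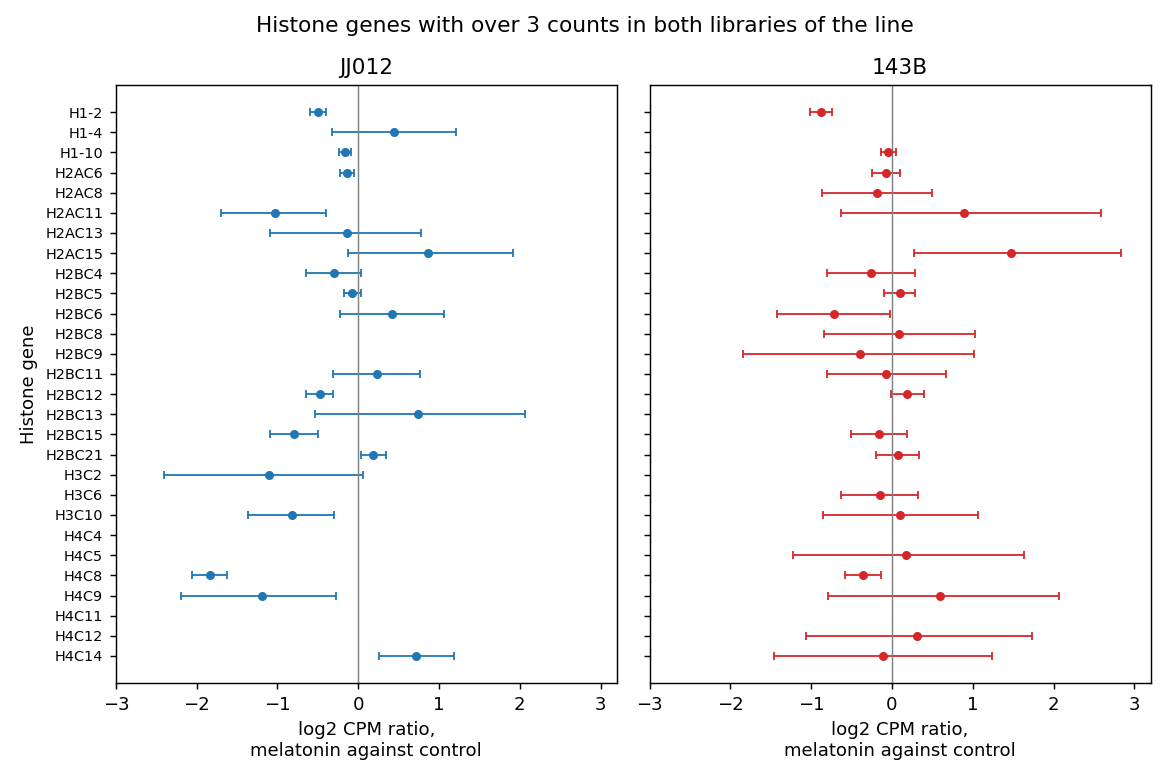
Log2 CPM ratio of melatonin against control (x axis) for each of the 28 members (y axis), JJ012 in the left panel and 143B in the right one, drawn where both libraries of the line held over 3 counts. Points are ratios of 2 libraries and bars their exact 95% counting intervals. H4C8 in JJ012 (-1.83) and H1-2 in both lines lie clear of 0 on the lower side. So do others, among them H2AC11, H4C9 and H3C10 in JJ012 and H4C8 in 143B. On the upper side lie H4C14 and H2BC21 in JJ012 and H2AC15 in 143B.

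More members were called between the lines than with melatonin. In the controls, 28 members were tested between JJ012 and 143B, of which 16 were called higher and 7 lower in JJ012, where 41.3% of 16929 tested genes were called higher and 27.4% lower. As a share of the tested members, 57.1% were higher and 25.0% lower, the latter near the share of all genes. The members' median was 0.86, beside 0.29 over all tested genes. TMM scaling put the median of all genes at 0.01 and gave 14 members higher and 7 lower (all genes 33.6% and 34.2%). Centring on the median gene gave the same counts (all genes 32.6% and 34.5%). TPM gave 18 and 13 of 41 tested (all genes 38.4% and 36.5%). Subtraction of the running median over exonic length gave 8 and 8 of 28 (all genes 29.8% and 32.7%), so both shares then lay near those of all genes.

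By class, JJ012 held more of the H2A sum (3.99-fold, log2 CPM ratio 2.00, 1.87 to 2.13), of the H2B sum (2.26-fold, 1.17, 1.08 to 1.26) and of the H4 sum (2.03-fold, 1.02, 0.86 to 1.19). The H1 sum was 1.48-fold higher (0.56, 0.50 to 0.63), and the interval of the H3 sum held 0 (-0.15, -0.53 to 0.23). Of the 113 H3 counts in the 143B control, 77 were of H3C6, which had no count in JJ012, whereas H3C10 and H3C2 were called higher in JJ012. Among single members above 3 counts in both controls, H2AC11 was 10.1-fold higher in JJ012 (73 counts against 6), H4C14 was 5.11-fold higher (68 against 11) and H2AC6 was 4.29-fold higher. Next came H3C10 (4.13-fold, 95 against 19), H4C9 (3.93-fold, 38 against 8), H3C2 (3.80-fold, 23 against 5) and H2BC5 (3.25-fold). H1-2 (1.61-fold higher) and H2BC12 (1.77-fold higher) passed the threshold on FPKM as deposited and not with TMM factors (0.34 and 0.47 on the log2 scale). The comparison shares its control libraries with the melatonin comparisons.

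All the members called lower in JJ012 apart from H4C12 had no count at all in either JJ012 library. They are H2AC8, H2BC8, H2BC9, H3C6, H4C4 and H4C5, and they are neighbours. H4C12 was called on 3 counts against 9, with an interval that held 0 (log2 CPM ratio -1.86, -4.38 to 0.14). Along the 140 genes between the first and last member of chromosome 6, the longest run of genes at 0 counts in both JJ012 libraries took 21 genes in a row, from H4C4 to H2BC10 (chr6:26188710-26273412, 84.7 kb), of which 15 are members. This stretch was chosen after its values were seen. It held 209 counts in the 143B control and 184 in melatonin-treated 143B, spread over 13 and 15 of the 21 genes, and 0 in each JJ012 library. Its sum was thus at least 84.3-fold lower in the JJ012 control than in the 143B control and at least 57.7-fold lower in treated JJ012 than in treated 143B, against a floor of 3 counts.

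The genes on either side had counts in JJ012. H2BC6, just before the stretch, had 41 and 46 counts in control and treated JJ012 and 47 and 31 in control and treated 143B. H4C8, just after it, had 899 and 212 counts in JJ012 and 373 and 315 in 143B. The longest run of genes at 0 in both 143B libraries over the same 140 genes was 10. Of 27 members with at least 5 counts in the 143B control, 8 had no count in either JJ012 library. Of these, 7 lie in the stretch, which was chosen on these same values, and the other is H2BC18 on chromosome 1 (28 and 25 counts in 143B). Among all genes with at least 5 counts in the 143B control, 3.12% of 19168 had none in JJ012. Nothing in these files measures DNA, and what underlies the stretch was not tested. Without its members, the comparison of controls counted 16 higher and 1 lower in JJ012 of 22 tested. Since members of the stretch were at 0 in JJ012 by its choice, leaving them out could only remove members called lower, and nothing follows from that count.

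**Figure D4:**
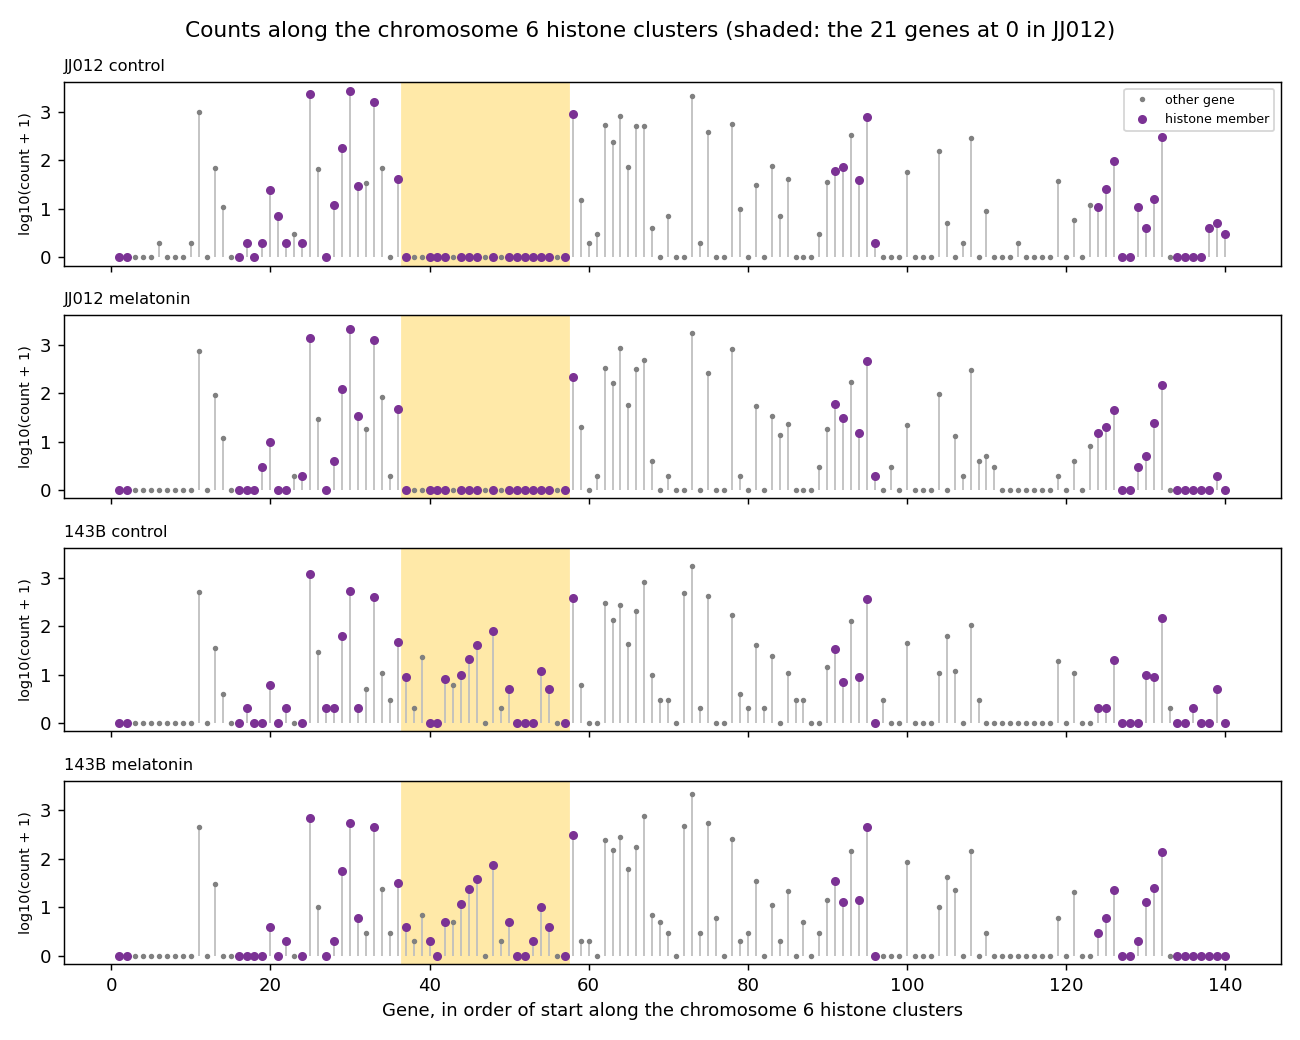
Counts as log10(count + 1) (y axis) of the 140 genes between the first and last histone gene of chromosome 6, in order of position (x axis), with 1 panel per library, members in purple and other genes in grey. The shaded 21 genes sit at 0 in both JJ012 panels and hold 209 and 184 counts in the 143B panels, while the genes on either side have counts in all panels.

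Divergent neighbours were far apart in level in some pairs and less so in others. There were 13 pairs of members that start within 1000 bases of each other on opposite strands, with 169 to 978 bases between them, 11 of them an H2A gene beside an H2B gene. Over 3 counts in at least 1 library were found for both genes in 6 pairs, for 1 gene in 4 pairs and for neither in 3 pairs. H2BC12 had 777, 470, 363 and 448 counts (JJ012 control and treated, 143B control and treated), where its neighbour H2AC12 had 1, 1, 0 and 0. H2BC21 had 709, 678, 218 and 247 counts, where H2AC20 had 2, 4, 2 and 0. In the pair with the H2AC6 promoter shown above, it was the H2A gene that led, with 85.13 FPKM for H2AC6 and 12.59 FPKM for H2BC4 in the JJ012 control. Less far apart, in FPKM and the same order of libraries, were H2BC11 (2.98, 3.49, 1.99 and 1.89) and H2AC11 (7.70, 3.77, 0.77 and 1.42). H2BC13 (1.15, 1.92, 0.14 and 0.26) stood beside H2AC13 (2.63, 2.38, 0.13 and 0.59). H2BC8 and H2AC8, both at 0 in JJ012, were at 2.57 and 4.87 FPKM in the 143B control and 2.74 and 4.28 FPKM after melatonin.

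The members differed in exonic length as deposited, by which genes such as H2AC11 and H2BC9 are short although their GENCODE 29 models are long. They spanned 386 to 4265 bases with a median of 502, and 14 had 1000 bases or more, a length beyond that of the short stem-loop mRNA. Those 14 held 61.0% of the members' counts in the JJ012 control, 62.6% after melatonin, and 60.4% and 64.5% in control and treated 143B. Those 14 include H1-7, H1-8 and H1-10, and without these 3 the long genes held 49.2% of the clustered members' counts in the JJ012 control but 40.6% and 44.0% in control and treated 143B, where the short genes held most of them. Between 8 and 9 of the 14 reached 1 FPKM per library, compared with 11 to 12 of the 55 shorter ones. In JJ012 with melatonin, 0 of 9 tested long members were higher and 3 lower, where 17.8% and 16.2% of all genes of that length were. Of 12 tested short members 1 was higher and 4 lower, where 28.9% and 30.2% of all genes of that length were. Short members were thus called lower in a share (33.3%) near that of all short genes.

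Genes that act on histones were counted from written lists. Of the listed histone variants, which the rule leaves out, 7 of 10 were tested in JJ012 with melatonin, 3 lower and 0 higher (median -0.30). Of all tested genes there, 18.6% were lower and 19.6% higher. In 143B 9 were tested and none called, where 6.65% of all tested genes were lower and 6.09% higher. H2AX, which marks DNA breaks when phosphorylated, was at 8.24 FPKM in the JJ012 control and 3.93 FPKM after melatonin. H3-3A, 1 of the genes for the replacement histone H3.3, was at 27.61 FPKM and 16.04 FPKM, and H2AZ1, the H2A.Z of gene promoters, at 46.94 FPKM and 30.24 FPKM. In 143B the same genes were close in control and treated cells, at 4.35 and 4.24 FPKM for H2AX, 22.01 and 21.70 FPKM for H3-3A and 41.31 and 45.84 FPKM for H2AZ1. Another H3.3 gene, H3-3B, at 39.62 and 44.09 FPKM in JJ012, did not pass the threshold.

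Of the genes for transcription, end processing and decay of histone mRNA, 24 of 26 were tested in JJ012, with 9 higher, 0 lower and a median of 0.43, where 19.6% of all genes were higher. In 143B, 25 were tested, with 2 higher, 0 lower and a median of 0.08, where 6.09% of all genes were higher and 6.65% lower. In JJ012, LSM11, a subunit of the U7 snRNP that cuts histone pre-mRNA, was at 2.85 FPKM in the control and 6.85 FPKM after melatonin. CASP8AP2, a protein of the histone locus body, was at 2.02 and 5.06 FPKM, and ZNF473, which acts with the U7 snRNP, at 2.26 and 5.45 FPKM. NPAT, the cyclin E and CDK2 target that activates histone transcription, was at 2.29 and 4.38 FPKM. These regulators were higher while the sum of the clustered histone genes was lower. Of the decay factors, XRN1 was at 4.20 and 8.33 FPKM, TUT7 at 6.68 and 12.74 FPKM and UPF1 at 8.93 and 15.27 FPKM. In 143B, LSM10, another U7 snRNP subunit, was higher, at 1.50 FPKM in the control and 3.83 FPKM after melatonin. After subtraction of the running median over exonic length, 5 of the 24 were higher in JJ012, near the 18.1% of all genes.

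Of the S phase and proliferation genes, 19 of 24 were tested in JJ012 with melatonin, 0 higher and 4 lower with a median of -0.14, near the 18.6% of all genes that were lower. In 143B 20 were tested, 2 higher and 4 lower with a median of -0.29, where 6.09% and 6.65% of all genes were. In JJ012 the flap endonuclease FEN1 was lower (18.47 FPKM in the control, 7.78 FPKM after melatonin), with CDT1, which licenses replication origins (2.47 and 1.19 FPKM), and PRIM1, a primase subunit (2.11 and 1.02 FPKM). RRM2, a ribonucleotide reductase subunit made in S phase, was lower in both lines, at 1.09 and 0.39 FPKM in JJ012 and 4.70 and 1.41 FPKM in 143B. In 143B the proliferation genes TOP2A (12.18 and 4.76 FPKM), CCNA2 (6.80 and 2.93 FPKM) and MKI67 (6.40 and 2.81 FPKM) were lower, whereas PCNA, the sliding clamp, was higher (7.09 and 11.50 FPKM). The part of S phase in the histone values was not tested.

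Histone chaperones were called lower in 1 of 18 tested genes in 143B, namely HJURP, the chaperone of CENPA (32.45 FPKM in the control and 20.08 FPKM after melatonin), and in none in JJ012. No gene of 15 for general cleavage and polyadenylation was called in either line, with medians of 0.02 in JJ012 and 0.04 in 143B. Beside both lists, 19.6% of all tested genes were higher and 18.6% lower in JJ012, and 6.09% and 6.65% in 143B.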

How the data were processed

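RNA was measured in 4 libraries, 1 per condition, and samples were grouped by their titles. Table columns were matched to samples by line, taking the suffix T to mean the treated library. Raw counts per gene were deposited by the authors, and per the labels' processing notes the tools were cutadapt 1.9.1, HISAT2 2.2.1, HTSeq 0.6.1 and DESeq2 on build hg38. The strand setting is not given in the sources used here, and reads of overlapping or near-identical genes can be miscounted. The FPKM deposited by the authors are those counts over exonic length and library total, rounded to 2 decimals.

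Log2 fold changes used FPKM plus 1, for any gene reaching 1 FPKM in either library compared, and a size of 0.58, the fold threshold of the study, was called. The planned design assumed FPKM, and since counts were present, CPM ratios with exact (Clopper-Pearson) 95% intervals were added. Intervals and the floor of 3 counts cover counting error only. Within a line no test was made, since each condition has 1 library, and edgeR 4.0.16 and DESeq2 1.42.0 gave scaling factors. Both also fitted melatonin over the 2 lines with the line as a block (edgeR quasi-likelihood test, filterByExpr), which was added after seeing the data. Alternatives were a pseudocount of 0.1, no filter, a filter of 5 FPKM, a threshold of 1, centring, TPM, CPM, TMM, DESeq2 size factors, subtraction of the running median over exonic length (501 genes), a fold with a counting interval, and totals without mitochondrially encoded genes. Clustered members alone and members outside the stretch at 0 in JJ012 were added after seeing the data. The rule takes 1 further gene that is not reported here and enters no member value. The members, lists and thresholds were chosen with earlier results of these data known. All members at 1 FPKM or more in at least 1 library are named, with at most 8 called genes per list by size. Transcripts came from GENCODE 29 and promoters from RefSeq (GRCh38.p14). Procedures were tested on simulated counts. Python 3.11.15 with pandas 2.3.3, scipy 1.17.1 and matplotlib 3.10.9 and R 4.3.3 were used.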

Additional observations from a re-analysis of the deposited data

Results flagged for a closer look

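Signal was seen in 4 histone pseudogenes that the rule leaves out, each above the 3 counts that a count of 0 allows. H2BC20P had up to 1387 counts (793, 1387, 773 and 807 in JJ012 control and treated and 143B control and treated). H2BC19P had up to 317 counts (224, 317, 209 and 249). H4C10P had up to 11 counts and H1-9P up to 8, both in the JJ012 control. Reads shared with near-identical functional copies were not separated.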

How the results depend on the processing

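No member called in a comparison changed direction in it under any alternative run, but counts of called members are small and several moved. For JJ012 with melatonin (1 higher and 7 lower of 21 tested as reported), there were 3 higher with a pseudocount of 0.1 FPKM, 0 higher and 2 lower with a filter of 5 FPKM, 0 higher and 1 lower at a threshold of 1, 7 higher on the TPM scale, 0 higher with DESeq2 size factors, 4 higher and 4 lower after subtraction of the running median over exonic length, and 0 higher when the counting interval had also to exclude no difference. The members' median turned to 0.072 on the TPM scale and 0.025 after that subtraction. Of all tested genes in JJ012, 24.5% were higher with the pseudocount of 0.1 FPKM. The filter of 5 FPKM (9 members tested) gave 22.1% higher and 17.7% lower, and the threshold of 1 gave 7.86% and 6.88%. For 143B (1 higher and 2 lower of 22), there were 2 higher with a pseudocount of 0.1 FPKM, 0 higher and 1 lower with a filter of 5 FPKM, 0 and 0 at a threshold of 1, 5 higher and 8 lower on the TPM scale, and 1 lower on the CPM scale, after subtraction of the running median, with the counting interval, and without the stretch at 0 in JJ012, where the median turned to 0.003. Between the controls (16 higher and 7 lower of 28, median 0.863), there were 11 lower without a filter (median 0.237), 8 higher and 0 lower with a filter of 5 FPKM, 13 lower on the TPM scale (median 0.306), 8 higher after subtraction of the running median (median 0.148), and 1 lower without the stretch. Of all tested genes in 143B, 10.7% were higher with the small pseudocount. The filter of 5 FPKM (8 members tested) gave 3.95% higher and 3.76% lower there. The threshold of 1 gave 1.71% and 2.74%, and TPM (36 members tested) 13.2% and 15.5%. Between the controls, 15.2% of all genes were lower without a filter (52 members tested). With the filter of 5 FPKM (9 members tested), 40.5% were higher and 28.9% lower. A filter of 5 FPKM, a threshold of 1 and the restricted sets call fewer by construction, and the TPM scale admits more low genes (23153 tested in JJ012). The cause of the other moves was not tested. Without mitochondrially encoded genes in the total, the members' share was 0.0728% in the JJ012 control and 0.0585% in treated JJ012, and moved within its interval in 143B. Depth limits most members: 41 of 69 stayed under 1 FPKM in each library. With the line as a block (paired libraries of each line, 1 residual degree of freedom), edgeR called 0 members of 23, 0 of 54 without a filter, and DESeq2 0 of 23.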
